A study of Mus musculus with 22 samples.

Results

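The windows described here are gene start sites with an H3K27me3 level over a set limit in mouse embryonic stem cells (ESC). Levels of SUZ12 and H3K4me3 stayed under set limits there. These windows are called H3K27me3-only below, a name that rests on the limits and not on a test against a control. Of 24467 windows around RefSeq transcription start sites (TSS), 4829 had an H3K27me3 level of at least 60 CPM (the count divided by the library's sum over all windows, times 1000000) in both ESC libraries. Among these, 2279 also had SUZ12 below 60 CPM and H3K4me3 below 30 CPM in both ESC libraries. The members were thus selected on measured ESC levels of these 3 antibodies. They made up 9.31% of all windows and 47.2% of the H3K27me3 windows. Each window spans 5000 bases centred on a TSS, so that levels compare equal lengths, and 293 of the 2279 overlapped another window. The members lay at 2160 separate loci once overlapping windows were merged. For reference, 1960 windows had H3K27me3 and SUZ12 of at least 60 CPM in both ESC libraries and are called SUZ12-bound.

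The series profiled chromatin by CUT&RUN, in which an antibody directs a nuclease to cut out the DNA fragments it marks, in ESC and in neural progenitor cells (NPC) made from them. All groups shared the C57BL/6 strain, the genotype given as untagged with Tir1 (the plant receptor used to degrade tagged proteins) and no treatment, and whether the line is 1 clone is not given in the sources used here. ESC were kept in serum-free N2B27 medium with leukemia inhibitory factor at 100 U/mL, the GSK3 inhibitor CHIR99021 at 3 µM and the MEK inhibitor PD0325901 at 1 µM. For NPC the same basal medium held bFGF (10 ng/mL, 72 h) and after it the hedgehog agonist SAG (500 nM, 48 h). Antibodies to SUZ12, JARID2, MTF2, H3K27me3 and H3K4me3 each had 2 biological replicates per cell type, and the unspecific IgG control had 1 library per cell type.

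Polycomb repressive complex 2 (PRC2) places methyl groups on lysine 27 of histone H3, and SUZ12 is a core subunit of every PRC2. MTF2 and JARID2 are accessory subunits of alternative forms of the complex, and MTF2 is known for binding CpG-rich DNA that lacks DNA methylation. In ESC, PRC2 is best known at CpG-rich promoters of developmental regulators, where H3K27me3 often meets H3K4me3, the mark of start sites that are active or can become so.

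A few promoter sequences are shown as examples, chosen among named genes with results known. The 250 bases upstream of the TSS, from RefSeq (GRCm38.p6, the mm10 assembly), are given 5′ to 3′ on the gene's strand, with each CG dinucleotide in capitals. The first group holds members whose ESC MTF2 level was not above IgG: 2 keratin genes of epithelia and hair (Krt34 at chr11:100041555-100041804, minus strand, and Krt23 at chr11:99493121-99493370, minus strand), an odorant receptor gene (Olfr463 at chr11:87893923-87894172, minus strand) and the tyrosine hydroxylase gene of catecholamine synthesis (Th at chr7:142899996-142900245, minus strand).
Krt34: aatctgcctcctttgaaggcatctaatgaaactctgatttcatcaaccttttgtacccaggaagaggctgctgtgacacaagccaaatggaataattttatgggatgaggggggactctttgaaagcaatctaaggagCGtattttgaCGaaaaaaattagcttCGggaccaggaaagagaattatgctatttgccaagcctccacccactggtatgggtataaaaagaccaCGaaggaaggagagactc
Krt23: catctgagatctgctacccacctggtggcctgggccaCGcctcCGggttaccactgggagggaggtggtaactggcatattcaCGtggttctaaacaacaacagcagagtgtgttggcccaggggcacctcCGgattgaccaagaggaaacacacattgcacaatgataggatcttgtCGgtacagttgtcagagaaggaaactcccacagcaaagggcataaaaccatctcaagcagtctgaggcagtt
Olfr463: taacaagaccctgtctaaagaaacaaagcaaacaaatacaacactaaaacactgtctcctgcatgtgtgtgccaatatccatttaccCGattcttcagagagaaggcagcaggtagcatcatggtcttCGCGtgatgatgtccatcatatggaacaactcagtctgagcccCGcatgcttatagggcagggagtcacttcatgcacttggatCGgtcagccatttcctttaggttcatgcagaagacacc
Th: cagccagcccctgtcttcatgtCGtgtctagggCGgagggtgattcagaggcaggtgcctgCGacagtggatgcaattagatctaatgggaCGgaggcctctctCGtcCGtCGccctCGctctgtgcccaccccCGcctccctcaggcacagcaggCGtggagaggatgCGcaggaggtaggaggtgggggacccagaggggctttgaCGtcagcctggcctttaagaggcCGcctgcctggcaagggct
The second group holds the 2 members with the smallest p for MTF2 over IgG in ESC: Jazf1, which encodes a zinc finger protein, at chr6:53068625-53068874 (minus strand), and Cttnbp2, which encodes a cortactin-binding protein of neurons, at chr6:18514870-18515119 (minus strand).
Jazf1: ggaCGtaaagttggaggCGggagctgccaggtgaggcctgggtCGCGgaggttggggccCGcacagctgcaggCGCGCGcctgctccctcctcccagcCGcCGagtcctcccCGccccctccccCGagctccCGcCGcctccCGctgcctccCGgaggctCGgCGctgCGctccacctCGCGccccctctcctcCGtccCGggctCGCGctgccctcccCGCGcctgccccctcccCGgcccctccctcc
Cttnbp2: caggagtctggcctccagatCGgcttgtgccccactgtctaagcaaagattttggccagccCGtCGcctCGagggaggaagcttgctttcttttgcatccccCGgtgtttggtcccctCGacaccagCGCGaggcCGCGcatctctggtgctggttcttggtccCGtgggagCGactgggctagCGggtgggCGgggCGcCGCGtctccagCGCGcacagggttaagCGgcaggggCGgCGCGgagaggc
For comparison, 2 SUZ12-bound promoters of neural transcription factor genes are Pax6 at chr2:105682213-105682462 (plus strand) and Sox1 at chr8:12395269-12395518 (plus strand).
Pax6: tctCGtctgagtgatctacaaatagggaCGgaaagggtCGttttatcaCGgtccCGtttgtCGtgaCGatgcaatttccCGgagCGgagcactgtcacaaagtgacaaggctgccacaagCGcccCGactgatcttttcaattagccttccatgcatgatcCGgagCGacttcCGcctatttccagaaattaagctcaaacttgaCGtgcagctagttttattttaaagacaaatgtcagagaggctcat
Sox1: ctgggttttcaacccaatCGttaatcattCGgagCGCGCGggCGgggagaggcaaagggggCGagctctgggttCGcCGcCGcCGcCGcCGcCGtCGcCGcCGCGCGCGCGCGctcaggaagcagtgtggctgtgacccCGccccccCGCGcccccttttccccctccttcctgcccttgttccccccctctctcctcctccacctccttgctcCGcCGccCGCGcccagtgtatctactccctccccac
In these stretches Krt34 held 4 CG, Krt23 and Olfr463 held 5 each, and Th held 13. Jazf1 held 28 and Cttnbp2 held 23, against 15 at Pax6 and 29 at Sox1. The count did not separate members by the MTF2 call: among other members above IgG for ESC MTF2, Cdx4 held 5, Soga3 held 7 and Tmem246 held 9, whereas Gpr83, not above IgG, held 18. Over the 32851 promoters of the RefSeq table, the quartiles of the same count were 2, 6 and 16, and 92.1% held at least 1 CG, which reads the same on both strands. The letters TATAAA, on either strand, were found in Krt34 and in 12.4% of the table's promoters. Only 1518 of the 2279 members (66.6%) matched a promoter in the table by transcript and position, so no count over the members as a whole is given. A match of letters is a description of the window, not a binding site.

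Depth was taken for all 22 libraries, and cell identity could be checked with the H3K4me3 libraries alone. Library sums ran from 298458 counts (ESC IgG) to 8425292 counts (the second NPC H3K4me3 library), and the median count per member window ran from 14 in ESC IgG to 90 in the first ESC H3K27me3 library. At this depth single windows of the 3 PRC2 subunits and of IgG are imprecise, and 3 counts equal 10.05 CPM in ESC IgG. H3K4me3 at the 8 ESC marker genes summed to 1339 and 1437 CPM in ESC and to 181 and 180 CPM in NPC, and 7 of the 8 fell. The 8 NPC markers all rose, from sums of 308 and 295 to 1132 and 1165 CPM. Of 5 neuron markers 4 rose and 1 fell, from sums of 116 and 119 to 233 and 253 CPM. Of 5 mesoderm markers 1 rose and 4 fell, from sums of 211 and 189 to 119 and 110 CPM. Of 5 trophectoderm markers 0 rose and 4 fell, from sums of 325 and 326 to 114 and 123 CPM. Of 5 endoderm markers 1 rose and 2 fell, with sums going from 165.5 and 145.5 to 212.6 and 216.7 CPM. The NPC H3K27me3 replicates differed more than any other pair, with a chi-square per degree of freedom of 6.67 over all windows against 1.23 for the ESC pair.

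The values that chose the members are given first, as a description. Median H3K27me3 over the 2279 windows was 93.2 and 89.6 CPM in the ESC libraries, with a range of 60.1 to 283 CPM in the first, against 148 and 136 CPM at SUZ12-bound windows. Median ESC SUZ12 was 32.6 and 35.2 CPM, below the ESC IgG median of 46.9 CPM at the same windows, and median ESC H3K4me3 was 6.17 and 5.80 CPM. The members held 23.3% and 22.2% of all ESC H3K27me3 counts and 11.3% of ESC IgG counts. Among windows that overlap no other, the highest level stood at Pax4, a transcription factor gene of pancreatic islet development, with 283 and 259 CPM in ESC. Gpr83, an orphan receptor gene, had 273 and 207 CPM. Lamc3, a laminin chain gene, had 264 and 208 CPM, and Th had 263 and 221 CPM. Tmem100, which encodes a membrane protein of endothelium and sensory neurons, had 224 and 250 CPM. The hair keratin gene Krt87 had 249 and 227 CPM, the epidermal keratin gene Krt77 had 254 and 210 CPM, and Fgf6, a fibroblast growth factor gene of muscle, had 243 and 208 CPM. These levels were as high as those at SUZ12-bound promoters such as Pax6, with 234 and 216 CPM of H3K27me3. SUZ12 at Pax6 was 189 and 192 CPM in the same cells, whereas the 8 members just named had 31.5 to 59.5 CPM.

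The limits cut through continuous values. Just inside the H3K27me3 limit lay Mir199a-2, a microRNA gene, at 60.1 and 75.7 CPM, 2310043L19Rik at 60.1 and 71.0 CPM, and Cmah, a sialic acid hydroxylase gene, at 60.1 and 63.3 CPM. Just outside lay Ddx4, a germ cell helicase gene, at 59.0 and 63.3 CPM, Ermn, a myelin gene, at 59.0 and 72.6 CPM, and Pld5 at 59.0 and 71.0 CPM. Just inside the SUZ12 limit lay Pcdhb11, a clustered protocadherin gene of neuronal adhesion, at 59.5 and 57.4 CPM of SUZ12, Asphd1 at 59.5 and 48.1 CPM, and Lrp1b, a lipoprotein receptor gene, at 59.5 and 38.9 CPM. Just outside it lay 1700092C10Rik at 60.6 and 48.1 CPM, Mecom, a transcription factor gene of blood stem cells, at 60.6 and 55.5 CPM, and Gm9962 at 60.6 and 50.0 CPM. Windows on either side of a limit thus differed by about 1 CPM in the library that decided it.

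**Figure D1:**
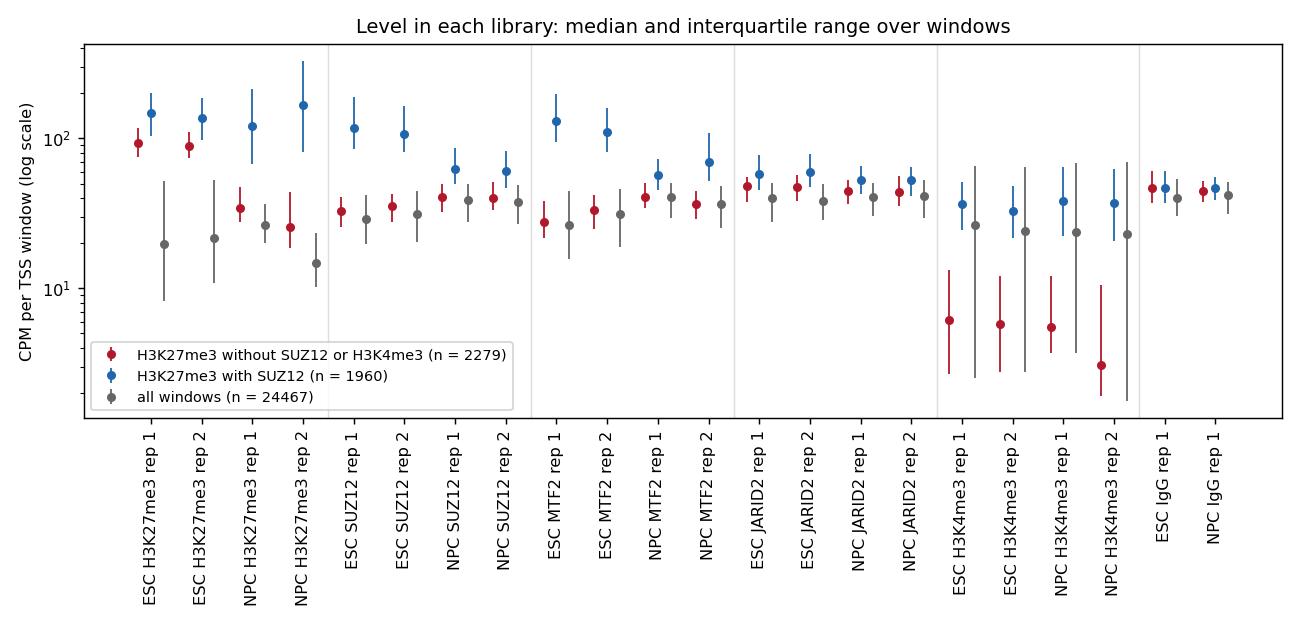
Level of each antibody and of IgG in each of the 22 libraries, in CPM per TSS window on a log axis. Points are medians and lines are interquartile ranges over the 2279 H3K27me3-only windows (red), the 1960 SUZ12-bound windows (blue) and all 24467 windows (grey). The red medians of H3K27me3 stand at 93.2 and 89.6 CPM in ESC and at 34.4 and 25.5 CPM in NPC, and the red medians of SUZ12 and MTF2 lie below that of IgG in ESC, while those of JARID2 in both cell types and of all 3 subunits in NPC lie near it.

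By gene group, the share of members was highest among keratins and collagens, and was low among Hox and other developmental transcription factor genes and among several groups of sensory and immune genes. Of 54 keratin gene windows, 41 (75.9%) were members, against 9.31% of all windows, and only Krt8, a simple-epithelium keratin gene, was SUZ12-bound. Of 135 windows of chemokine, interleukin and related receptor genes, the signals between immune cells, 43 (31.9%) were members and 7 were SUZ12-bound. Of 1116 odorant receptor windows 64 (5.73%) were members, a share below that of all windows, and none was SUZ12-bound. Vomeronasal receptors gave 2 members of 334 windows, serpins 2 of 64, alpha-defensins 0 of 25 and killer cell lectin-like receptors 0 of 29. Of 54 keratin-associated protein windows of hair 15 were members, and of 43 beta-defensin windows, which encode antimicrobial peptides, 7 were members, again with no SUZ12-bound window in either group. Structural and neuronal gene groups were split between both kinds. Of 45 collagen windows 16 were members and 15 SUZ12-bound, of 45 glutamate and GABA receptor windows 14 were members and 13 SUZ12-bound, and of 131 potassium, sodium and calcium channel windows 30 were members and 53 SUZ12-bound. Clustered protocadherins gave 12 members and 35 SUZ12-bound windows of 58. Developmental transcription factor genes were mostly SUZ12-bound. Of 39 Hox windows, the genes that pattern the body axis, none was a member and 37 were SUZ12-bound. Of 149 Pax, Lhx, Nkx, Dlx, Irx, Pou, Fox, Sox, Gata, Tbx and sine oculis homeobox windows 7 were members and 99 were SUZ12-bound. The 7 were Pax4, Foxi1, Foxs1, Nkx6-3, Pou2f3, Sox5 and Tbx22. No ribosomal protein gene (of 101 windows) and no small nucleolar RNA gene (of 114) was a member. These shares follow from the limits on ESC levels and carry no test.

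**Figure D2:**
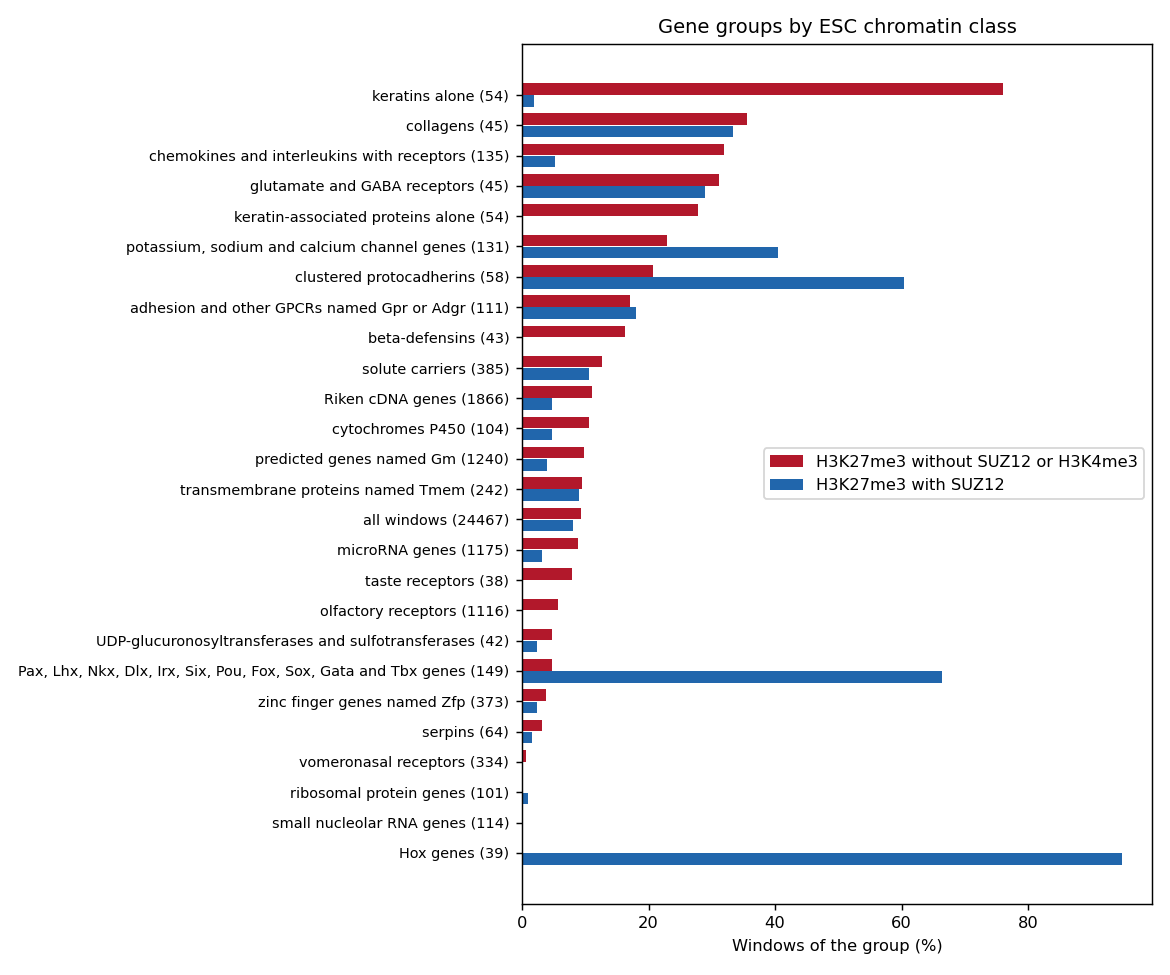
Share of each gene group's windows, in percent, that were H3K27me3-only (red) or SUZ12-bound (blue) in ESC, with the number of windows of the group in brackets. Keratins lead the red bars at 75.9%, while Hox genes reach 94.9% in blue and 0% in red.

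Group leaders illustrate the levels. The olfactory receptor gene Olfr463 had 237 and 216 CPM of H3K27me3 in ESC and 67.6 and 38.9 CPM in NPC. The microRNA gene Mir7086 had 223 and 201 CPM in ESC, and its window overlaps that of Il10ra, the interleukin 10 receptor gene, with 198 and 174 CPM. Slc9a3, a sodium-proton exchanger gene of gut and kidney, had 224 and 191 CPM. These levels differed little between the ESC replicates and stood well over the limit. Kcnh6, a potassium channel gene, had 197 and 205 CPM. Cdh5, the cadherin gene of endothelium, had 190 and 150 CPM, and Col4a4, a basement membrane collagen gene, had 144 and 154 CPM. Lower leaders belonged to smaller sensory and metabolic groups. Cyp17a1, a steroid hydroxylase gene, had 123 and 105 CPM, Defb25, a beta-defensin gene, 132 and 124 CPM, and Tas2r135, a bitter taste receptor gene, 106 and 94.2 CPM. Zfp385c, a zinc finger gene, had 173 and 147 CPM. Among genes without a described function the leaders were Gm4981, with 180 and 198 CPM, and B230312C02Rik, with 221 and 204 CPM.

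Many members had other members nearby on the chromosome. Taking runs of at least 4 members within 500 kb, 141 runs held 821 of the 2279 windows. Runs were not counted for other windows, so whether members lie closer together than other windows do was not tested. The run with the most members spanned Krt87 to Krt4 on chromosome 15 (101436305 to 101927235, mm10), the type II keratin cluster, where 23 of 26 windows were members and none was SUZ12-bound. In that run the mean ESC H3K27me3 level of a window ranged from 84.2 to 238 CPM, and median ESC SUZ12 was 30.3 and 35.2 CPM. The next run, Lypd8 to Olfr311 on chromosome 11 (58376532 to 58843615), held 21 members among 28 windows, most of them odorant receptor genes. The third, Krt26 to Gm11564 on chromosome 11 (99335466 to 99818166), held 20 members among 33 windows, type I keratin and keratin-associated protein genes. A microRNA run from Mir493 to Mir3072 on chromosome 12 held 18 members among 68 windows, but the 18 overlap and make 5 loci. Within the type II cluster the epidermal keratin genes were covered as well as the hair keratin genes. Krt5, a keratin gene of basal epidermis, had 111 and 75.7 CPM in ESC, and Krt4, a keratin gene of the oesophagus, had 237 and 187 CPM. At the border, Krt8 reached 178 and 165 CPM of H3K27me3 with 115 and 92.5 CPM of SUZ12, and the translation factor gene Eif4b beyond it had 12.4 and 18.5 CPM of H3K27me3.

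**Figure D3:**
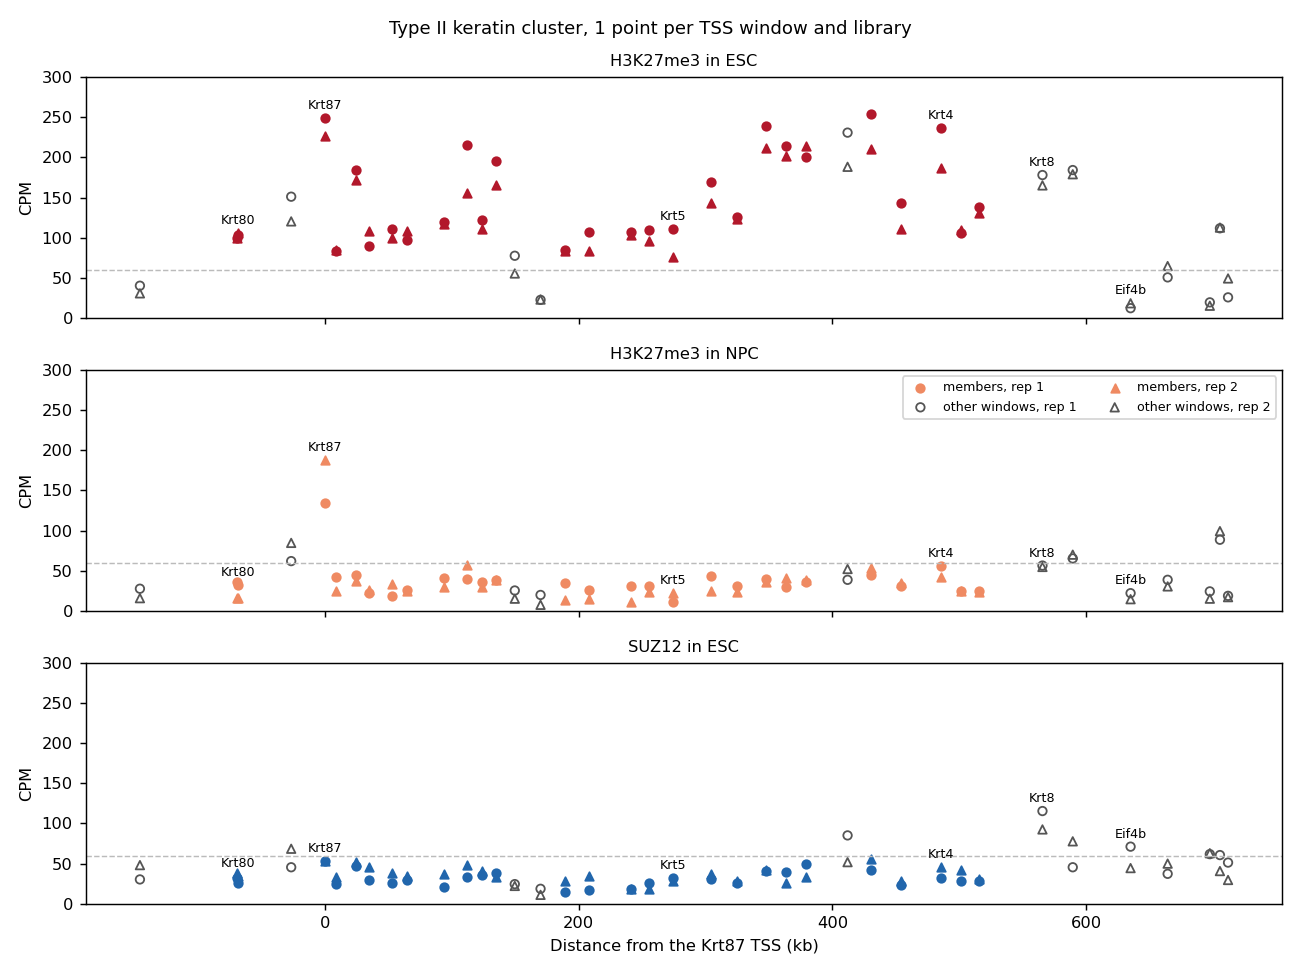
Levels along the type II keratin cluster on chromosome 15, in CPM, against the distance from the Krt87 TSS in kb, for H3K27me3 in ESC (top), H3K27me3 in NPC (middle) and SUZ12 in ESC (bottom). Filled points are H3K27me3-only windows, open points other windows, circles and triangles the replicates, and the dashed line marks 60 CPM. The filled points lie above the line for ESC H3K27me3 and below it for NPC H3K27me3 except at Krt87, with 134 and 188 CPM, and Krt8 exceeds it for SUZ12 with 115 and 92.5 CPM.

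By distance, members lay nearer to SUZ12-bound promoters than other windows did, though few lay close by. The median distance from a member TSS to the nearest SUZ12-bound TSS was 282 kb, against 475 kb for windows of neither class. Within 10 kb of a SUZ12-bound TSS lay 48 members (2.11%), against 156 (0.773%) of the windows of neither class, and 338 members (14.8%) lay more than 1000 kb away, against 29.3% of the windows of neither class. Chromosome X held few members, 25 of its 1066 windows (2.35%), and also few SUZ12-bound windows, 8 of 1066 (0.75%). Median ESC IgG was 23.5 CPM over the 25, against 46.9 CPM over all members, and the part of this lower background was not tested. Chromosome 15, with the type II keratin cluster, held the largest share of members, 127 of 905 (14.0%).

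The PRC2 subunits MTF2 and JARID2, whose libraries the selection did not use, were compared with IgG in ESC. The selection held ESC SUZ12 low, and both belong to complexes with SUZ12. The comparison is thus not independent of the selection. MTF2 was above IgG at 41 members, among them Jazf1, Cttnbp2 and the microRNA gene Mir8109, and below IgG at 50. Called means an adjusted p below 0.05 and a log2 fold of at least 1 in edgeR's quasi-likelihood fit of all 22 libraries with Benjamini-Hochberg adjustment. The 41 are 1.80% of the members against 9.1% of all windows tested, and the 50 are 2.194% against 1.75%. Of the 2169 windows above IgG that make the 9.1%, 1255 were SUZ12-bound. Over the members the median log2 of MTF2 over IgG was -0.24, against -0.05 over all windows and 1.86 over SUZ12-bound windows, of which 1255 of 1960 were above IgG. Median MTF2 was 27.6 and 33.4 CPM in ESC, with IgG at 46.9 CPM. JARID2 was above IgG at 0 members and 0 of 23836 windows (0%) by edgeR, with 70 members at an unadjusted p below 0.05, and DESeq2 called 0 of the 3 members to which its filter left an adjusted p. Median ESC JARID2 was 47.8 and 47.6 CPM, next to IgG, and edgeR also called 0 of the SUZ12-bound windows, whose median log2 fold was 0.36. Over all windows DESeq2 called 0.188% above IgG and a fit of the JARID2 and IgG libraries alone 0.819%, with 0 members in either.

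At Jazf1 ESC MTF2 was 79.3 and 81.5 CPM against 20.1 CPM of IgG. That is a log2 fold of 2.42 (SE 0.52, edgeR adjusted p = 0.00182). At Cttnbp2 MTF2 was 84.1 and 73.1 CPM with the same IgG level, a log2 fold of 2.41 (SE 0.54, edgeR adjusted p = 0.00277). Mir8109 had 79.3 and 58.5 CPM and a log2 fold of 2.24 (SE 0.55, edgeR adjusted p = 0.00492). SUZ12 at these 3 windows was close to its limit, with 47.8 and 51.8 CPM at Jazf1, 58.3 and 57.4 CPM at Cttnbp2 and 50.1 and 42.6 CPM at Mir8109. Their ESC H3K4me3 was above the member median, at 27.7 and 22.9 CPM for Cttnbp2. Over the 41 windows median ESC IgG was 23.5 CPM, against 46.9 CPM over all members, so the control itself was lower there, and its part in the result was not tested. Median ESC H3K4me3 over the 41 was 19.3 and 19.1 CPM, also above that of the members, and 22 of the 41 lay more than 1000 kb from a SUZ12-bound TSS. The opposite end held Ncf4, an oxidase subunit gene of phagocytes, with 25.2 and 27.2 CPM of MTF2 against 107 CPM of IgG and a log2 fold of -1.60 (SE 0.39, edgeR adjusted p = 0.00452). Tpsab1, a mast cell tryptase gene annotated here as a transcribed pseudogene, and Ranbp3l likewise combined low MTF2 with IgG of 90.5 and 93.8 CPM, and median IgG over the 50 windows below IgG was 80.4 CPM. Without the first ESC MTF2 library fewer members and fewer of all windows were called in either direction, and the members' median log2 was -0.24. DESeq2 gave 16 members above IgG and 60 below, against 6.68% and 1.52% of all windows. Scaling by library totals gave 12 and 221, against 6.02% and 4.79% of all windows. With the IgG libraries of both cell types as control 120 members were above and 82 below, against 14.2% and 3.47% of all windows.

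In NPC the median level of the mark at these windows was lower than in ESC. Median NPC H3K27me3 was 34.4 and 25.5 CPM, against 121 and 167 CPM at SUZ12-bound windows, and the members held 9.75% and 9.15% of NPC H3K27me3 counts. At the same limit of 60 CPM, 285 members (12.5%) had H3K27me3 in both NPC libraries, against 10.8% of all windows. Against ESC, 1731 of 2279 members were lower and 13 higher, where 23.5% of all windows tested were lower and 22.9% higher. The ESC libraries of that contrast chose the members, so these counts are given as a description only. Without the first ESC library 936 were lower.

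The NPC libraries were not used by the selection, and here 575 members had H3K27me3 above IgG and 4 below. The 575 are 25.2% of the members, against 15.1% of all windows tested and 84.1% of SUZ12-bound windows (1648 of 1960), while the 4 are 0.176% against 1.07% of all windows. The counts by gene group are given without a test of their differences. Among keratins 4 of 41 were above IgG in NPC (Krt87, Krt2, Krt75 and Krt82), among odorant receptors 2 of 64, and among chemokines, interleukins and their receptors 10 of 43. Median NPC IgG was 53.9 CPM over the 41 keratins, against 44.9 CPM over all members, and the part of the higher control was not tested. Among glutamate and GABA receptors 9 of 14 were above IgG, among clustered protocadherins 7 of 12, and among the 7 developmental transcription factor genes 5. Without the second NPC H3K27me3 library 330 members were above IgG and without the first 778, and scaling by library totals gave 213 above and 539 below. A fit of the H3K27me3 and IgG libraries alone called 32 and DESeq2 499. A log2 fold of at least 2 gave 212 of the 2279. Over all windows library totals called 8.94% above IgG and 43.4% below. The fit of these libraries alone called 1.58% of all windows above IgG, DESeq2 13.7% and the log2 fold of at least 2 8.98%. With library totals, the fit alone and the larger fold, the share of members above IgG was thus near that of all windows.

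The 3 members with the smallest p were Grin3b, Sowahd and Cdx4. Grin3b, a glutamate receptor subunit gene, had 67.3 and 75.7 CPM of H3K27me3 in ESC and 167 and 180 CPM in NPC, where IgG was 25.5 CPM. The log2 fold over NPC IgG was 3.76 (SE 0.40, edgeR adjusted p = 4.73e-09). Sowahd, on chromosome X, had 106 and 107 CPM in ESC and 162 and 231 CPM in NPC, a log2 fold over IgG of 4.27 (SE 0.46, edgeR adjusted p = 4.97e-09). Cdx4, a posterior body axis regulator on chromosome X, had 103 and 105 CPM in ESC and 124 and 196 CPM in NPC. Its log2 fold over IgG was 3.89 (SE 0.44, edgeR adjusted p = 7.03e-09). In all 3 genes both NPC libraries stood above both ESC libraries, as at few other members. The members highest in ESC are given with their NPC values as a description. Pax4 went from 283 and 259 to 111 and 116 CPM, with a log2 fold over NPC IgG of 1.84 (SE 0.39, edgeR adjusted p = 0.000150). Gpr83 had 139 and 161 CPM in NPC, Lamc3 122 and 138 CPM, and Krt87 134 and 188 CPM, all above IgG. Krt77 and Fgf6 were not called above IgG, with 44.3 and 53.5 CPM at Krt77 and 38.8 and 29.9 CPM at Fgf6 in NPC. Among the 4 below IgG was Hpn, which encodes the liver protease hepsin, at 74.6 and 100.4 CPM in ESC and 18.8 and 10.2 CPM in NPC against 62.9 CPM of IgG. The microRNA gene Mir541 in the chromosome 12 run had 11.1 and 10.2 CPM in NPC against 47.9 CPM of IgG. The others were 9430069I07Rik and Gm21284, named outside the rule after their values were seen, with 19.9 and 12.1 CPM and with 24.4 and 7.64 CPM.

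Some members with high NPC levels are named here after their values were seen. Mir196a-1, a microRNA gene, had 82.9 and 74.1 CPM of H3K27me3 in ESC and 617 and 1084 CPM in NPC, a log2 fold over NPC IgG of 4.68 (SE 0.71, edgeR adjusted p = 6.54e-07). SUZ12 at Mir196a-1 went from 50.1 and 46.3 to 116 and 107 CPM, and its TSS lies 6.17 kb from a SUZ12-bound TSS. Insl3, a peptide hormone gene of the testis, went from 114 and 89.6 to 427 and 741 CPM, and Prss16, a serine protease gene of the thymus, from 147 and 133 to 305 and 478 CPM. Prss16 lies 1304 kb from the nearest SUZ12-bound TSS, with NPC SUZ12 of 38.6 and 37.9 CPM, so a high NPC level of the mark occurred with and without SUZ12 above 60 CPM. Tle2, a corepressor gene, went from 77.7 and 64.9 to 233 and 323 CPM. Avp, the vasopressin gene, went from 185 and 150 to 215 and 304 CPM. Pou2f3, a transcription factor gene of chemosensory tuft cells, went from 67.3 and 71.0 to 141 and 182 CPM. At each of these windows the second NPC library was the higher of the pair, and both NPC libraries stood above both ESC libraries.

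Receptor and adhesion genes of neurons had higher median NPC levels than keratin genes, a difference that was not tested. Median NPC H3K27me3 over the 14 glutamate and GABA receptor members was 54.9 and 67.8 CPM, over the 12 protocadherins 42.7 and 60.2 CPM, and over the 41 keratins 37.7 and 25.5 CPM, with 34.4 and 25.5 CPM over all members. Pcdhb4 had 78.7 and 108 CPM in NPC after 230 and 210 CPM in ESC, against 16.5 CPM of IgG. Col4a4 had 63.2 and 69.4 CPM in NPC. Values of epithelial genes were lower. Krt5 had 11.1 and 22.9 CPM in NPC, Krt14, its partner in basal epidermis, 48.8 and 36.3 CPM after 241 and 205 CPM in ESC, and neither was called above IgG. NPC IgG was 53.9 CPM at Krt5 and 74.9 CPM at Krt14. Both genes were named after their values were seen. Among members by distance, 7 of 13 windows within 2.5 to 5 kb of a SUZ12-bound TSS were above IgG, 21.4% of those at 200 to 1000 kb and 38.5% of the 338 beyond 1000 kb. Windows of neither class gave 15 of 35, 6.79% and 6.00% at the same distances. On chromosome X 18 of 25 members were above IgG, where median NPC H3K27me3 was 42.1 and 64.98 CPM and median NPC IgG was 21.0 CPM, against 44.9 CPM over all members, and the part of the lower control was not tested. Of the 41 members with ESC MTF2 above IgG, 31 had NPC H3K27me3 above IgG, which is 75.6% of that list and 5.39% of the 575. Their median NPC IgG was 32.9 CPM and 6 of the 41 lie on chromosome X, and the part of the lower control was not tested.

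**Figure D4:**
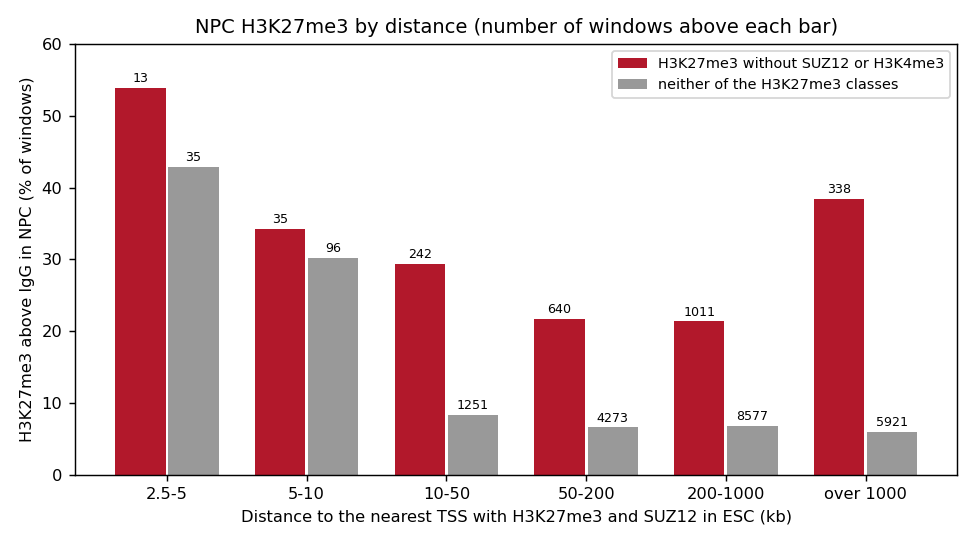
Share of windows, in percent, with H3K27me3 above IgG in NPC, by the distance in kb from their TSS to the nearest SUZ12-bound TSS, for H3K27me3-only windows (red) and windows of neither class (grey), with the number of windows above each bar. The red bars run from 7 of 13 windows at 2.5 to 5 kb to 21.4% at 200 to 1000 kb and 38.5% beyond 1000 kb. The grey bars stand at 15 of 35 windows, 6.79% and 6.00% at these distances.

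In NPC, edgeR's fit of all libraries called no PRC2 subunit above IgG at these windows, while a fit of each antibody with IgG alone called 3 members for SUZ12, 1 for JARID2 and 0 for MTF2. SUZ12, JARID2 and MTF2 were each above IgG at 0 members and 0 of all 23836 windows tested (0%) by edgeR, with 84, 61 and 86 members at an unadjusted p below 0.05, and DESeq2 called 0 for each, with an adjusted p at 3, 2279 and 3 members. Over all windows DESeq2 called 0.989% above IgG for SUZ12, 0% for JARID2 and 1.25% for MTF2. The fit of each antibody with IgG alone called 1.56%, 0.179% and 0.00429% of all windows. Median NPC SUZ12 was 40.8 and 40.1 CPM, JARID2 44.7 and 44.2 CPM and MTF2 41.0 and 36.7 CPM, next to 44.9 CPM of IgG. SUZ12-bound windows also gave 0 calls in NPC in edgeR's fit of all libraries, although their median NPC SUZ12 was 62.2 and 60.2 CPM. A lack of calls in that fit thus does not show a lack of the subunit. At the limit of 60 CPM, 74 members (3.25%) had SUZ12 in both NPC libraries, against 6.87% of all windows and 41.7% of SUZ12-bound windows.

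Between the cell types, JARID2 changed at 1 member and MTF2 at 152. For JARID2, 2239 members passed the filter on low counts, 0 were higher in NPC and 1 was lower, where 0.0792% of all windows tested were higher and 0.75% lower. The 1 was Krt80, a keratin gene near the type II cluster, with 101 and 73.7 CPM in ESC and 50.8 and 26.5 CPM in NPC, a log2 change of -1.11 (SE 0.30, edgeR adjusted p = 0.0404). The call was lost without the first ESC library (adjusted p = 0.454) or the second NPC library (adjusted p = 0.486), with library totals (adjusted p = 0.0529) and with a minimum count of 30 (adjusted p = 0.0979). Its window overlaps another. The 2 NPC JARID2 libraries differed by no more than counting error, and counted as 1 sample they gave the same call (adjusted p = 0.0425).

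For MTF2, 2244 members passed the filter, 41 rose and 111 fell in NPC, 1.83% and 4.95%, where 3.28% of all windows tested rose and 8.89% fell. Among SUZ12-bound windows 876 of 1960 fell and 0 rose. Nxph2, a secreted neuronal ligand gene, fell from 74.5 and 48.0 to 13.7 and 27.1 CPM, a log2 change of -1.89 (SE 0.35, edgeR adjusted p = 6.32e-05). Scin, which encodes the actin-severing protein adseverin, fell from 84.1 and 60.6 to 22.8 and 30.9 CPM (log2 change -1.73, SE 0.34, edgeR adjusted p = 0.000161). Tmem246 fell from 102 and 68.9 to 31.9 and 30.9 CPM (log2 change -1.76, SE 0.35, edgeR adjusted p = 0.000233). In these 3 genes both ESC libraries stood above both NPC libraries, and ESC SUZ12 lay between 35.2 and 54.8 CPM. Ctla4, an inhibitory receptor gene of T cells, rose from 9.61 and 14.6 to 47.8 and 42.5 CPM, a log2 change of 1.67 (SE 0.42, edgeR adjusted p = 0.00397). Ptk6, a tyrosine kinase gene of epithelia, rose from 12.0 and 23.0 to 52.3 and 54.1 CPM, and Klhl33 rose from 14.4 and 18.8 to 43.2 and 58.0 CPM. NPC IgG at these 3 windows was 34.4, 53.9 and 41.9 CPM, so the NPC level of MTF2 was at or near that of the control. Over the 111 that fell median MTF2 went from 61.3 and 52.2 to 31.9 and 30.9 CPM, and over the 41 that rose from 18.03 and 23.0 to 59.2 and 48.3 CPM. The counts depend on the scaling and on single libraries: library totals gave 163 higher and 50 lower of 2244, against 10.1% and 6.89% of all windows tested. DESeq2 gave 0 and 26 of the 257 members to which it gave an adjusted p, and called 0.0204% and 6.39% of all 24467 windows. A minimum count of 30, which kept 108 members, gave 35 and 1, against 15.4% and 9.68% of all windows tested. Unlike in the main fit, the share of members that rose was there above that of all windows. Without the first ESC library 2 and 6 were called, without the first NPC library 0 and 6, and without the second NPC library 18 and 49. Without the first library of either cell type the calls at Nxph2, Scin, Ctla4, Ptk6 and Klhl33 were lost, while Tmem246 was called in all alternatives run.

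H3K4me3 stayed low at most members in NPC, and a small group had it above IgG, which is not a test against ESC. Median NPC H3K4me3 was 5.51 and 3.09 CPM, against 44.9 CPM of NPC IgG, and 136 members (5.97%) reached 30 CPM in both NPC libraries, against 46.0% of all windows. H3K4me3 was above IgG at 71 members, 3.12% against 38.9% of all windows tested, and below IgG at 1711, 75.1% against 41.2%. The NPC H3K4me3 libraries placed 2.35% and 1.97% of their counts in member windows, against 10.3% for NPC IgG. The microRNA host gene Mir124-2hg, the precursor of a neuronal microRNA, went from 8.07 and 4.69 CPM in ESC to 100.5 and 107 CPM in NPC, a log2 fold over IgG of 3.04 (SE 0.46, edgeR adjusted p = 6.48e-08). Crabp2, a retinoic acid binding protein gene, went from 28.3 and 21.8 to 165 and 177 CPM (log2 fold over IgG 2.51, SE 0.38, edgeR adjusted p = 6.74e-08). Soga3 went from 13.6 and 15.7 to 90.1 and 99.0 CPM (log2 fold over IgG 2.38, SE 0.38, edgeR adjusted p = 1.87e-07). In all 3 the NPC levels stood apart from the ESC levels. H3K27me3 at the same windows went from 120 and 144 to 27.7 and 64.98 CPM at Mir124-2hg, from 67.3 and 71.0 to 27.7 and 36.3 CPM at Crabp2, and from 103 and 105 to 28.8 and 45.2 CPM at Soga3. Some further genes of the 71 are named after their values were seen, and the list also held genes such as Timp3, Ednra, Gpx8 and Fgf10. Syt1, a synaptic vesicle gene, went from 20.1 and 21.5 to 50.9 and 47.6 CPM of H3K4me3, and its H3K27me3 was 86.0 and 91.1 CPM in ESC and 62.1 and 71.3 CPM in NPC. Dcc, a netrin receptor gene of axon guidance, went from 7.59 and 8.28 to 46.3 and 46.5 CPM of H3K4me3. Sox5, a transcription factor gene of neural and cartilage lineages, went from 11.5 and 8.28 to 57.3 and 55.9 CPM, with H3K27me3 going from 75.6 and 66.4 to 23.3 and 14.0 CPM. Map1a and Snap25, the last of them on the neuron marker list given above, were also among the 71. The part of neurons among the NPC in these values was not tested. At the other end stood Icam2, an adhesion gene of endothelium, with 6.13 and 2.61 CPM in NPC against 98.8 CPM of IgG, Krt34 with 2.14 and 2.37 CPM against 76.4 CPM, and Krt23 with 3.68 and 1.90 CPM against 77.9 CPM. Library totals called 13 members above IgG and a minimum count of 30 called 21, against 17.2% and 29.3% of all windows tested. With overlapping windows left out 115 of 1986 members were called, against 38.6% of the windows tested.

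**Figure D5:**
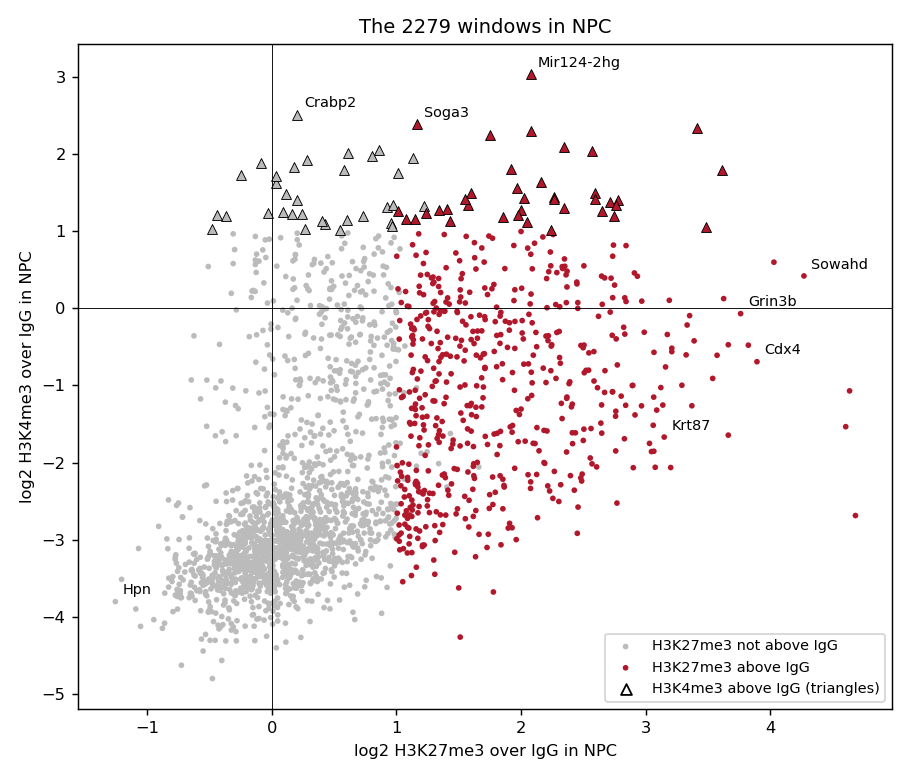
Each of the 2279 H3K27me3-only windows by its log2 fold of H3K27me3 over IgG (horizontal) and of H3K4me3 over IgG (vertical) in NPC. Both folds share the same NPC IgG library. Red points are the 575 windows with H3K27me3 above IgG and triangles the 71 with H3K4me3 above IgG. The medians lie at 0.34 for H3K27me3 and -2.63 for H3K4me3, Mir124-2hg stands highest at 3.04, and Sowahd lies near the right edge at 4.27.

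The same contrast between cell types, given as a description because ESC libraries chose the members, had H3K4me3 higher in NPC at 349 and lower at 489 of 2084 members that passed the filter, where 26.7% of all windows tested were higher and 29.2% lower. For SUZ12, 47 were higher and 58 lower of 2256 members, where 2.97% of all windows tested were higher and 13.1% lower.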

How the data were processed

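The deposited table holds raw counts of CUT&RUN reads per TSS window, made by the authors, and Bowtie2 2.3.4.3, Picard 2.19 and mm10 are named in the submitters' processing notes. How reads were counted and filtered is not given in the sources used here, and the Drosophila spike-in DNA named in the labels' protocols was not used. From these counts CPM and log2 folds were computed. The main tests used edgeR 4.0.16 (quasi-likelihood, TMM scaling, filterByExpr at a minimum count of 10, Benjamini-Hochberg over all windows tested) in R 4.3.3. Antibody over IgG was fitted on all 22 libraries, since the IgG library of each cell type is alone and is assumed to vary like the other groups. NPC against ESC was fitted on the 4 libraries of an antibody. DESeq2 1.42.0 was an alternative. The script was tested on simulated data. The members and the gene lists were chosen with earlier results of these data known. Named genes are the 8 highest in ESC H3K27me3, the leader of each gene group, the 3 smallest p per test and direction without predicted genes, the 3 on either side of a limit, and the longest runs; the leader of 1 group is not reported here. A total of 27 symbols held dates in place of gene names and were renamed through their transcript IDs. Replicate numbers were not shown to pair libraries: deviations of libraries of the same number correlated at -0.17 for MTF2, -0.19 for H3K27me3 and between -0.02 and 0.01 for the other antibodies. The planned promoter CpG comparison is void because 66.6% of members have a sequence.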

Additional observations from a re-analysis of the deposited data

How the results depend on the processing

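Of the 2279 members 1986 overlap no other window. The counts below are of members called, higher and lower together for NPC against ESC, and above IgG otherwise. DESeq2, whose own filter left an adjusted p at 116 members for JARID2, 257 for MTF2 and 307 for SUZ12, gave 0 for JARID2, 26 for MTF2 and 0 for SUZ12 between cell types, and 16 for ESC MTF2 over IgG. Of all windows it called 0% higher and 0.388% lower for JARID2, 0.0204% and 6.39% for MTF2, and 0.0409% and 6.87% for SUZ12. For ESC MTF2 it called 6.68% of all windows above IgG. Scaling by library totals shifted the median log2 of all windows from -0.09 to -1.03 for NPC H3K27me3 over IgG, from 0.22 to -0.71 for NPC H3K4me3 over IgG, from -0.05 to -0.48 for ESC MTF2 over IgG and from 0.07 to 0.35 for MTF2 between cell types. Library totals gave 213 for NPC H3K27me3, 13 for NPC H3K4me3 and 12 for ESC MTF2 over IgG, against 8.94%, 17.2% and 6.02% of all windows. Between cell types they gave 228 for SUZ12 (207 higher, 21 lower), against 11.3% of all windows higher and 9.56% lower. For JARID2 they gave 0, against 0.0932% and 0.741%. A minimum count of 30 gave 21 for NPC H3K4me3, against 29.3% of all windows tested. It gave 36 for MTF2, against 15.4% higher and 9.68% lower, and 0 for JARID2, against 2.52% and 13.1%. Leaving out overlapping windows gave 115 for NPC H3K4me3, against 38.6% of the windows tested, and 0 for JARID2, against 0.0664% higher and 0.549% lower. A log2 fold of at least 2 gave 212 for NPC H3K27me3, 10 for NPC H3K4me3 and 20 for ESC MTF2, against 8.98%, 15.2% and 4.85% of all windows. A fit of the antibody and IgG alone gave 3 for NPC SUZ12, 1 for NPC JARID2, 32 for NPC H3K27me3 and 73 for ESC MTF2. The shares of all windows were 1.56%, 0.179%, 1.58% and 8.22%. IgG of both cell types gave 120 for ESC MTF2, against 14.2% of all windows. Leaving out 1 library in turn gave 19 to 86 for SUZ12, 1 to 3 for JARID2, 6 to 200 for MTF2, 936 to 2104 for H3K27me3 and 545 to 1104 for H3K4me3 between cell types, and 330 to 778 for NPC H3K27me3 and 4 to 56 for ESC MTF2 over IgG. These ranges are given without shares over all windows, so they do not set the members against other windows. Causes of the changed counts were not tested, beyond the fewer windows that the filters keep. With the replicate number as a block 38 members were called for MTF2 between cell types (8 higher, 30 lower), against 0.728% and 1.70% of all windows tested. The block moved no other count by over 1.5 times. Crossed pairing, chosen after seeing the data, gave 208 for MTF2, against 4.74% of all windows tested higher and 14.8% lower. For H3K27me3 it gave 1815, against 25.1% and 25.2%. The 2 NPC JARID2 libraries differed by no more than counting error (the chi-square was 0.998 times its degrees of freedom), and summing them into 1, also chosen after seeing the data, kept 1 JARID2 call. For the named genes 211 values stayed on their side of the threshold, 25 lost it and none changed direction. This tally leaves out alternatives that gave no value for a gene. Among these are DESeq2 for Krt80, and DESeq2 and the minimum count of 30 for Ctla4, Ptk6, Klhl33 and Nxph2.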
